A study of Sus scrofa with 6 samples.

Results

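The genes described here encode parts of the cullin-RING ubiquitin ligases: the substrate adaptors of the F-box, KLHL, KBTBD and ASB families and the cullins that carry them. Their RNA was sequenced from the long back muscle, the longissimus dorsi, with 3 libraries of Wei pigs and 3 of Yorkshire pigs. Members were the rows of the deposited gene table whose symbol starts with FBXO, FBXL, FBXW, KLHL, KBTBD, ASB or CUL followed by a digit, without FBXO32, FBXO30, FBXO40 and KLHL38. This gave 97 of 25322 rows: 43 F-box, 33 KLHL and KBTBD, 13 ASB and 8 CUL genes, with 96 different symbols because FBXO3 has 2 rows. The Wei pigs ate commercial feed freely and were slaughtered at 90 kg. The Yorkshire pigs were reared in a similar way, and their slaughter weight, like the sex and age of every animal, is not given in the sources used here. Nothing in the labels ties a library to an animal of its own, so p-values measure only the spread between these libraries, which may be partly technical.

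A cullin-RING ligase attaches ubiquitin to proteins. The cullin is a long scaffold that holds a RING protein at its C-terminal end, which recruits the ubiquitin-conjugating enzyme, and an adaptor at its N-terminal end, which binds the target. CUL1 takes F-box proteins through SKP1, CUL3 takes BTB-Kelch proteins of the KLHL and KBTBD families directly, CUL5 takes ASB proteins through elongins B and C, and CUL2 and CUL4 use further adaptor families. Attachment of the small protein NEDD8 switches a cullin on. In skeletal muscle several adaptors are known for the turnover or stability of sarcomere and actin-linked proteins, and human KLHL40 mutations cause a nemaline myopathy.

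Libraries held 15285197 to 22570075 gene counts in Wei and 17876646 to 27096747 in Yorkshire. The skeletal muscle markers ACTA1, CKM, MYLPF, PYGM and TTN, 5 of 7 listed, were present in every library and none was called. Their summed level was 74379, 118169 and 151855 CPM (counts per 1000000 counts of a library, after TMM scaling) in Wei replicates 1 to 3 and 129241 to 146561 CPM in the Yorkshire libraries. Fibroblast markers moved with breed. The sum over the 4 listed of 5 fibroblast markers was 135 to 334 CPM in Wei and 413 to 654 CPM in Yorkshire, and 1 of them, DPT, was lower in Wei. Yorkshire replicate 3 stood apart in lymphocyte markers, at 40.3 CPM in sum, against 6.86 to 7.59 CPM in Wei and 9.61 and 12.7 CPM in the other Yorkshire libraries. It also stood apart in macrophage markers, at 88.7 CPM in sum, against 23.2 to 29.9 CPM in Wei and 23.2 and 28.3 CPM in the other Yorkshire libraries. Y-linked counts were 6901 in Wei replicate 2 and 9 and 14 in the other Wei libraries, against 8 to 10 in Yorkshire. The Wei libraries were thus mixed in Y-linked RNA and the Yorkshire libraries were not. The part of these differences in the results below was not tested. In whole muscle, fewer cells of a type and less RNA per cell cannot be told apart.

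In Wei muscle 12 adaptor and cullin genes were higher than in Yorkshire muscle and 2 were lower. Of the 97 members, 84 passed the count filter and were tested over all 13209 tested genes with edgeR's quasi-likelihood test. Calls were made at a Benjamini-Hochberg adjusted p of 0.05. Over all tested genes 5.08% passed, 2.73% higher and 2.35% lower, whereas among the members 14.3% were higher and 2.38% were lower. The members that rose were ASB2, ASB4, ASB5 and ASB8, then KLHL21, KLHL24, KLHL29, KLHL33 and KBTBD12, then FBXL4 and FBXW5, and CUL1. KLHL2 and KLHL23 fell. The median log2 fold change (Wei over Yorkshire) of the tested members was only 0.072, beside -0.023 over all tested genes, with 46 members above 0 and 38 below. By family, 30.8% of the ASB, 24.1% of the KLHL and KBTBD, 12.5% of the CUL and 5.88% of the F-box genes tested were called in either direction, the last being near the share of all genes. The members were chosen by name with earlier results of these data known, so no set test was made.

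**Figure D1:**
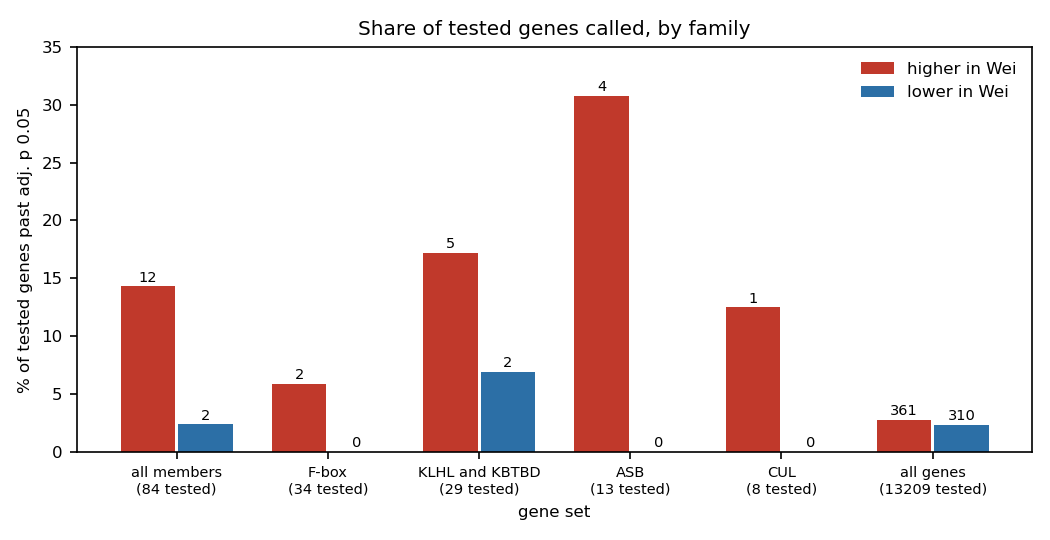
Percent of tested genes past an adjusted p of 0.05 (y axis) for all members, each family and all genes (x axis), with bars for genes higher and lower in Wei and the number of genes above each bar. ASB genes have the largest share higher in Wei, 4 of 13, and F-box genes the smallest of the families, 2 of 34.

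The counts rested on all 6 libraries. The fits without Wei replicate 1, 2 or 3 gave 8, 7 and 7 members higher in Wei. Those without Yorkshire replicate 1, 2 or 3 gave 7, 1 and 2. The members lower in Wei numbered 1 without Yorkshire replicate 3 and 0 in the other 5 fits. The share of all tested genes called fell in the same fits, to between 0.438% (without Yorkshire replicate 2) and 2.87% (without Wei replicate 2), while that of members was 1.19% and 8.33% in these 2 fits. KLHL24 was the 1 member that passed in each of the 6 fits.

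Levels between genes were compared in the deposited FPKM values, which are per length. ASB2 was the most abundant member, at 379 ± 72.7 FPKM in Wei and 176 ± 30.2 in Yorkshire (SD, n = 3 each). KLHL31, which targets filamin C in mouse muscle, came next, at 208 ± 35.3 FPKM in Wei and 174 ± 13.7 in Yorkshire. Then followed ASB5 (152 ± 29.7 and 71.3 ± 9.61 FPKM in Wei and Yorkshire) and KLHL40 (120 ± 26.3 and 70.9 ± 11.4 FPKM). In all 7 members averaged over 50 FPKM across the 6 libraries, the other 3 being CUL4A, CUL5 and CUL3, and 27 averaged under 1 FPKM. Neighbours in this order from CUL4A to CUL3 differed by less than or about their spread. Of the 14 called members, 12 averaged over 8 FPKM.

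**Figure D2:**
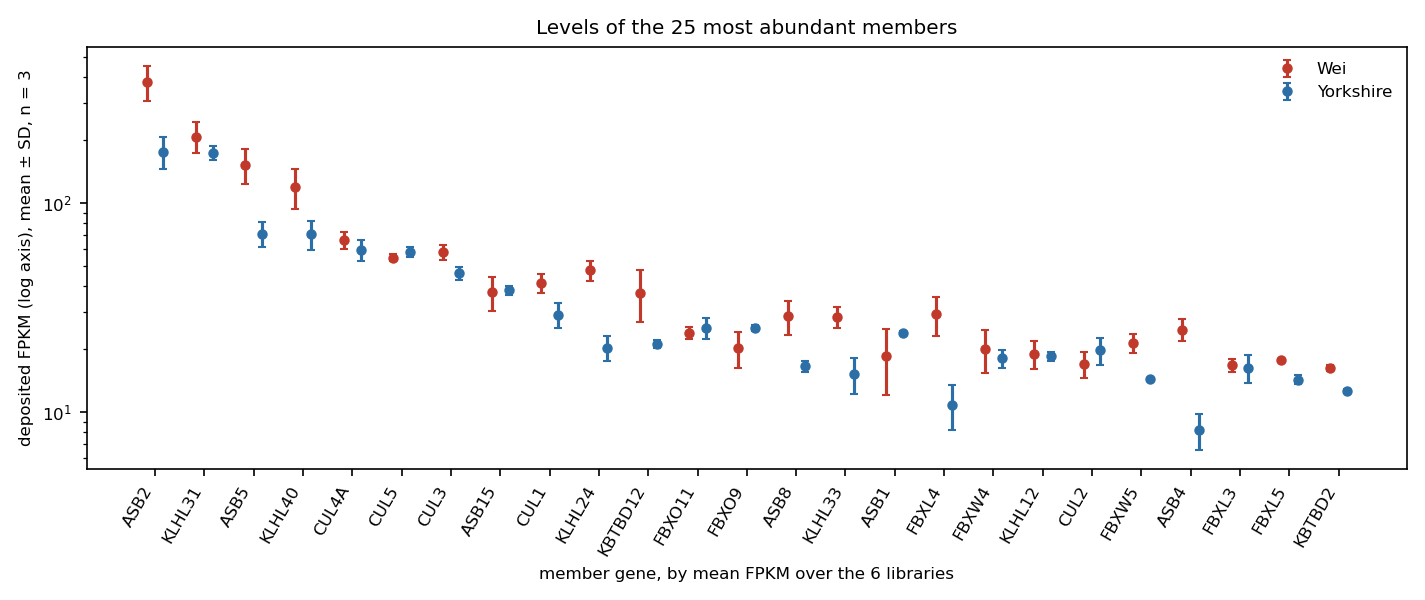
Deposited FPKM on a log axis for the 25 most abundant members, ordered by their mean over all libraries; points are means and bars SD of 3 Wei or 3 Yorkshire libraries. ASB2 is highest in Wei at 379 FPKM, and the Wei and Yorkshire means of CUL4A, CUL5 and ASB15 lie close together while those of ASB2, ASB5, KLHL24, FBXL4 and ASB4 are set apart.

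The 97 members together had a summed FPKM, as deposited, of 1751 ± 223 in Wei and 1246 ± 26.8 in Yorkshire (SD, n = 3 each). In CPM after TMM scaling their sum was 4361 ± 77.9 in Wei and 3095 ± 184 in Yorkshire, so the larger spread changed sides. They took 0.491%, 0.425% and 0.388% of the gene counts in Wei replicates 1 to 3 and 0.309% to 0.314% in Yorkshire, so the groups did not overlap. Wei replicate 1, the library with the lowest summed muscle markers, had the highest share. The difference was uneven between genes. ASB2 and ASB5 alone summed to 531 ± 94.9 FPKM in Wei and 247 ± 24.9 in Yorkshire. The KLHL and KBTBD genes summed to 575 ± 78.7 and 433 ± 21.4 FPKM. F-box genes summed to 255 ± 19.6 and 229 ± 8.88 FPKM and cullins to 243 ± 17.2 and 219 ± 19.3 FPKM. In both families the FPKM sums of the breeds overlapped, but the TMM-scaled CPM sums did not. F-box genes summed to 637 to 714 CPM in Wei and 576 to 616 CPM in Yorkshire. Cullins summed to 758 to 803 CPM in Wei and 673 to 732 CPM in Yorkshire. Spread within a breed was like that of other genes: the median coefficient of variation of a tested member's CPM was 14.9% in Wei and 12.6% in Yorkshire, beside 17.2% and 14.9% over all tested genes.

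Among the scaffolds, CUL1, which carries the F-box proteins, was the 1 called cullin of 8. CUL1 (chromosome 9, 120392199 to 120463997 in Sscrofa10.2) stood at 119, 124 and 118 CPM in Wei replicates 1 to 3 and at 75.8, 89.0 and 86.9 CPM in Yorkshire replicates 1 to 3. Every Wei library lay above every Yorkshire library, and the log2 fold change was 0.52 ± 0.12 (SE; edgeR quasi-likelihood adjusted p = 0.0458). The call was lost in each of the 6 fits with a library left out, at adjusted p of 0.0896 without Wei replicate 3 to 0.122 without Yorkshire replicate 2, and also without TMM scaling.

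CUL3, the scaffold of the KLHL and KBTBD proteins, stood at 139, 135 and 151 CPM in Wei and 111, 108 and 113 CPM in Yorkshire. Its groups did not overlap, but it missed the threshold, with a log2 fold change of 0.36 ± 0.11 and an edgeR adjusted p of 0.105. CUL5, the scaffold of the ASB proteins, stood at 135, 163 and 162 CPM in Wei and 159, 162 and 157 CPM in Yorkshire, and its groups overlapped (log2 fold change -0.058 ± 0.124). Of the scaffolds of other adaptor families, CUL4A had a log2 fold change of 0.17 ± 0.12, CUL4B 0.099 ± 0.169 and CUL2, which works with VHL, -0.19 ± 0.12. CUL7, which pairs with FBXW8, had one of -0.55 ± 0.21 and an edgeR adjusted p of 0.165, at 2.93 to 4.11 CPM in Wei and 4.59 to 5.35 CPM in Yorkshire. CUL9, an atypical cullin found bound to p53 in human cells, had one of 0.11 ± 0.14. The scaffolds other than CUL1 were therefore not called, with differences from -0.55 to 0.36 on the log2 scale.

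In the ASB family, whose ankyrin repeats bind targets and whose SOCS box binds elongins and CUL5, 4 of 13 genes rose in Wei and none fell. edgeR's test gave 6 ASB genes at an unadjusted p under 0.05, of which 1 was negative, and DESeq2 and limma voom also called 4 higher and 0 lower. The median log2 fold change of the family was 0.46.

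ASB2, which targets filamins and is induced as muscle cells differentiate, stood at 857, 776 and 718 CPM in Wei replicates 1 to 3 and at 447, 295 and 348 CPM in Yorkshire replicates 1 to 3 (chromosome 7, 122012985 to 122043651). Its lowest Wei library was above its highest Yorkshire library, and the log2 fold change was 1.11 ± 0.18 (edgeR adjusted p = 0.0182). It missed the threshold without Yorkshire replicate 2 (adjusted p = 0.0785) and without Yorkshire replicate 3 (adjusted p = 0.0649). ASB5, a gene of muscle and arterial wall whose targets are little known, stood at 571, 437 and 578 CPM in Wei and 257, 278 and 201 CPM in Yorkshire (chromosome 15, 44410073 to 44464546). The groups were apart, and the log2 fold change of ASB5, 1.11 ± 0.17, was the same as that of ASB2 to 2 decimals (edgeR adjusted p = 0.0182). It missed the threshold without Wei replicate 3 (0.052) and without Yorkshire replicates 2 (0.0602) and 3 (0.0568).

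ASB4, known in mice from the vessels of the placenta, had the largest log2 fold change of all tested members, 1.61 ± 0.20 (edgeR adjusted p = 0.00956; chromosome 9, 82488676 to 82579652). It stood at 30.5, 40.0 and 33.8 CPM in Wei replicates 1 to 3 and at 14.8, 9.79 and 9.62 CPM in Yorkshire replicates 1 to 3. All Wei values were more than 2-fold the highest Yorkshire value, and the call was lost only without Yorkshire replicate 2, at an adjusted p of 0.0546. Summed endothelial markers were 137 to 191 CPM in Wei and 173 to 196 CPM in Yorkshire, and 0 of 4 were called. Among them KDR had a log2 fold change of 0.55 and PECAM1 one of -0.38. Summed smooth muscle markers were 103, 160 and 341 CPM in Wei replicates 1 to 3 and 147 to 227 CPM in Yorkshire, with 0 of 4 called. The part of vessel content in the ASB4 difference was not tested. ASB8 stood at 66.4, 60.3 and 56.4 CPM in Wei and 34.6, 35.7 and 34.4 CPM in Yorkshire (chromosome 5, 81696220 to 81701871). Its Yorkshire libraries were nearly equal, and the log2 fold change was 0.81 ± 0.12 (edgeR adjusted p = 0.0137). ASB8 missed the threshold without Yorkshire replicates 2 (0.066) and 3 (0.0523).

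The remaining 9 ASB genes were not called. ASB15, a gene of skeletal muscle growth in other species, was the third ASB gene in abundance and stood at 66.1, 75.2 and 57.2 CPM in Wei and 73.2, 63.2 and 64.9 CPM in Yorkshire. Its groups overlapped, and its log2 fold change was -0.021 ± 0.139. ASB13 (-0.67 ± 0.21) and ASB11 (0.49 ± 0.16) were the nearest to the threshold in the family, with edgeR adjusted p of 0.106 and 0.111, and in both the groups did not overlap. ASB9 and ASB11 lie 14810 bases apart on the X chromosome, and ASB9 had at most 1.13 CPM in any library, in Yorkshire replicate 3. Together ASB2 and ASB5 made up 76.6% to 79.4% of the summed FPKM of the family in Wei and 65.8% to 69.7% in Yorkshire. The other 11 ASB genes summed to 147 ± 20.5 FPKM in Wei and 118 ± 1.31 FPKM in Yorkshire (SD, n = 3 each).

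**Figure D3:**
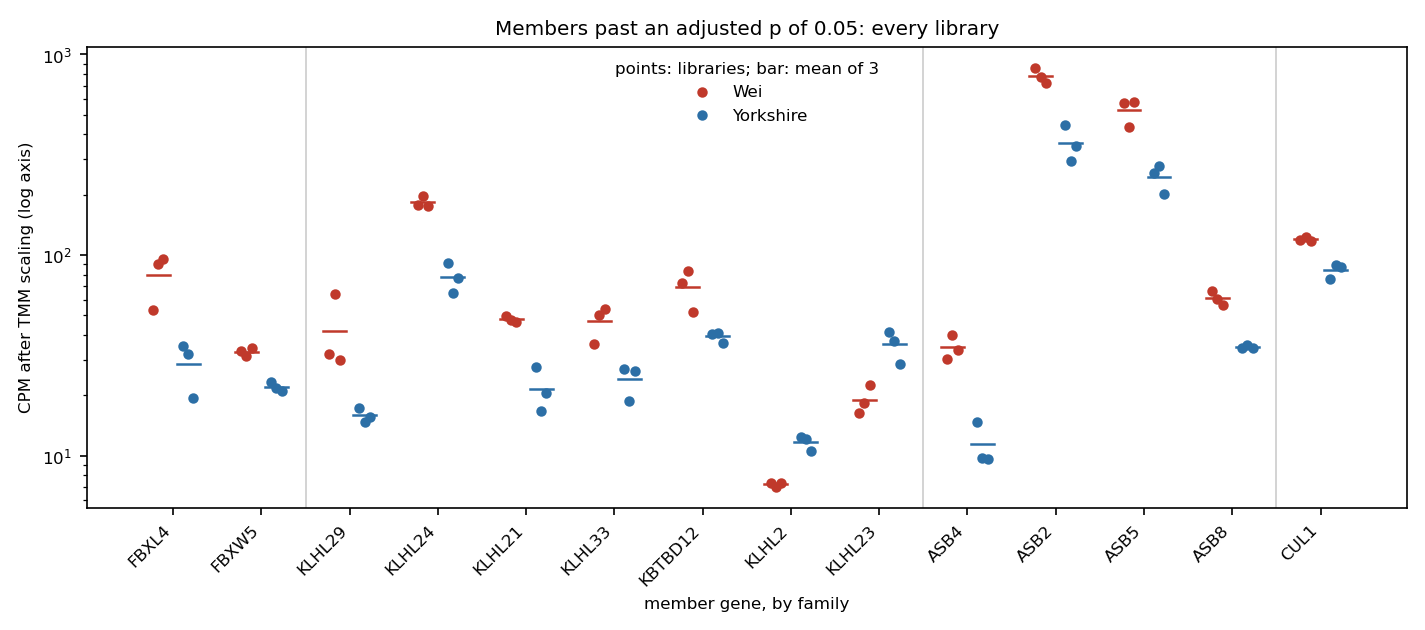
CPM after TMM scaling on a log axis in every library for the 14 members past an adjusted p of 0.05, grouped by family; points are single libraries, Wei left and Yorkshire right, and short bars are means of 3. The groups do not overlap for any of them: 12 genes are higher in Wei, and KLHL2 and KLHL23 are lower.

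In the KLHL and KBTBD family, adaptors in which a BTB domain binds CUL3 and a Kelch propeller binds the target, 5 of 29 tested genes rose in Wei and 2 fell. The median log2 fold change was 0.046, with 15 genes above 0 and 14 below, from -1.40 to 1.39. It includes KLHL24, which acts on keratin 14 in human skin and whose mutations also affect the heart. KLHL24 stood at 177, 196 and 177 CPM in Wei replicates 1 to 3 and at 91.1, 64.6 and 76.7 CPM in Yorkshire replicates 1 to 3 (chromosome 13, 131013295 to 131042066). The lowest Wei library lay well above the highest Yorkshire library. The log2 fold change was 1.24 ± 0.15 (edgeR adjusted p = 0.00906), and the adjusted p with a library left out ranged from 0.0131 to 0.0431.

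KLHL21, which directs CUL3 to Aurora B in dividing human cells, stood at 49.8, 47.6 and 46.4 CPM in Wei and 27.6, 16.6 and 20.6 CPM in Yorkshire (chromosome 6, 62395564 to 62405758). Its 3 Wei values were close to each other and above all Yorkshire values, with a log2 fold change of 1.15 ± 0.18 (edgeR adjusted p = 0.0182). The KLHL21 row overlaps the row of ZBTB48 over 10195 bases, so reads of the 2 genes may not be told apart, and ZBTB48 had 576 counts in all libraries against 4093 for KLHL21. The call was lost without Wei replicate 1 (adjusted p = 0.0513) and without Yorkshire replicates 2 (0.0654) and 3 (0.0614). KLHL29 stood at 32.1, 63.7 and 29.9 CPM in Wei and 17.3, 14.7 and 15.7 CPM in Yorkshire (chromosome 3, 122136104 to 122272144). Wei replicate 2 was the high library, and the log2 fold change was 1.39 ± 0.28 with it and 0.97 without it (edgeR adjusted p = 0.0352 and 0.0223). KLHL29 missed the threshold without Yorkshire replicates 1, 2 and 3, at 0.0689, 0.123 and 0.0975.

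KLHL33 stood at 35.9, 50.4 and 53.9 CPM in Wei and 27.04, 18.7 and 26.5 CPM in Yorkshire (chromosome 7, 83504240 to 83506062). Its groups did not overlap, its log2 fold change was 0.95 ± 0.20 (edgeR adjusted p = 0.0376), and it kept the call only without Wei replicate 1 (0.0352), with 0.0656 to 0.122 in the other 5 fits. KBTBD12 stood at 72.8, 83.3 and 52.2 CPM in Wei and 40.6, 41.1 and 36.4 CPM in Yorkshire (chromosome 13, 79782367 to 79835088). Wei libraries were the more variable but all higher, with a log2 fold change of 0.82 ± 0.18 (edgeR adjusted p = 0.0408). It passed only without Wei replicate 3 (0.026), with 0.0827 to 0.123 in the other 5 fits, and missed without TMM scaling.

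KLHL23 and KLHL2 were the members lower in Wei. KLHL23 stood at 16.3, 18.4 and 22.4 CPM in Wei and 41.5, 37.4 and 28.7 CPM in Yorkshire (chromosome 15, 85149172 to 85169855), without overlap. Its log2 fold change was -0.91 ± 0.18 (edgeR adjusted p = 0.0352), and it passed only without Yorkshire replicate 3 (0.044), with 0.0538 to 0.12 in the other 5 fits. KLHL2, an actin-binding adaptor that also targets WNK kinases, stood at 7.34, 6.96 and 7.34 CPM in Wei and 12.4, 12.2 and 10.6 CPM in Yorkshire (chromosome 8, 45678240 to 45785868). Both groups were tight, and the log2 fold change was -0.70 ± 0.15 (edgeR adjusted p = 0.0381), with 0.0804 to 0.127 in the 6 fits without a library and a miss without TMM scaling.

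KLHL3 and KLHL40 were just outside the threshold. KLHL3, the close relative of KLHL2 that targets WNK4 in the kidney, stood at 1.48, 1.04 and 1.91 CPM in Wei and 2.93, 5.53 and 3.46 CPM in Yorkshire. It was low in all libraries and lower still in every Wei one, with the most negative fold change of the tested members, -1.40 ± 0.34 on the log2 scale (edgeR adjusted p = 0.0515; DESeq2 adjusted p = 0.00764; limma voom adjusted p = 0.0696). KLHL40, which stabilises the thin filament proteins LMOD3 and nebulin in mouse muscle, stood at 246, 235 and 191 CPM in Wei and 160, 136 and 102 CPM in Yorkshire. Its groups were apart, with a log2 fold change of 0.75 ± 0.19 (edgeR adjusted p = 0.0555; DESeq2 adjusted p = 0.00519; limma voom adjusted p = 0.0514). KLHL31 overlapped between breeds, at 428, 358 and 405 CPM in Wei and 364, 298 and 327 CPM in Yorkshire (log2 fold change 0.27 ± 0.14; edgeR adjusted p = 0.281). KLHL42 had a log2 fold change of -0.76 ± 0.47 and varied most among tested members in Wei, with a coefficient of variation of 72.4% at 0.592 to 2.50 CPM.

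**Figure D4:**
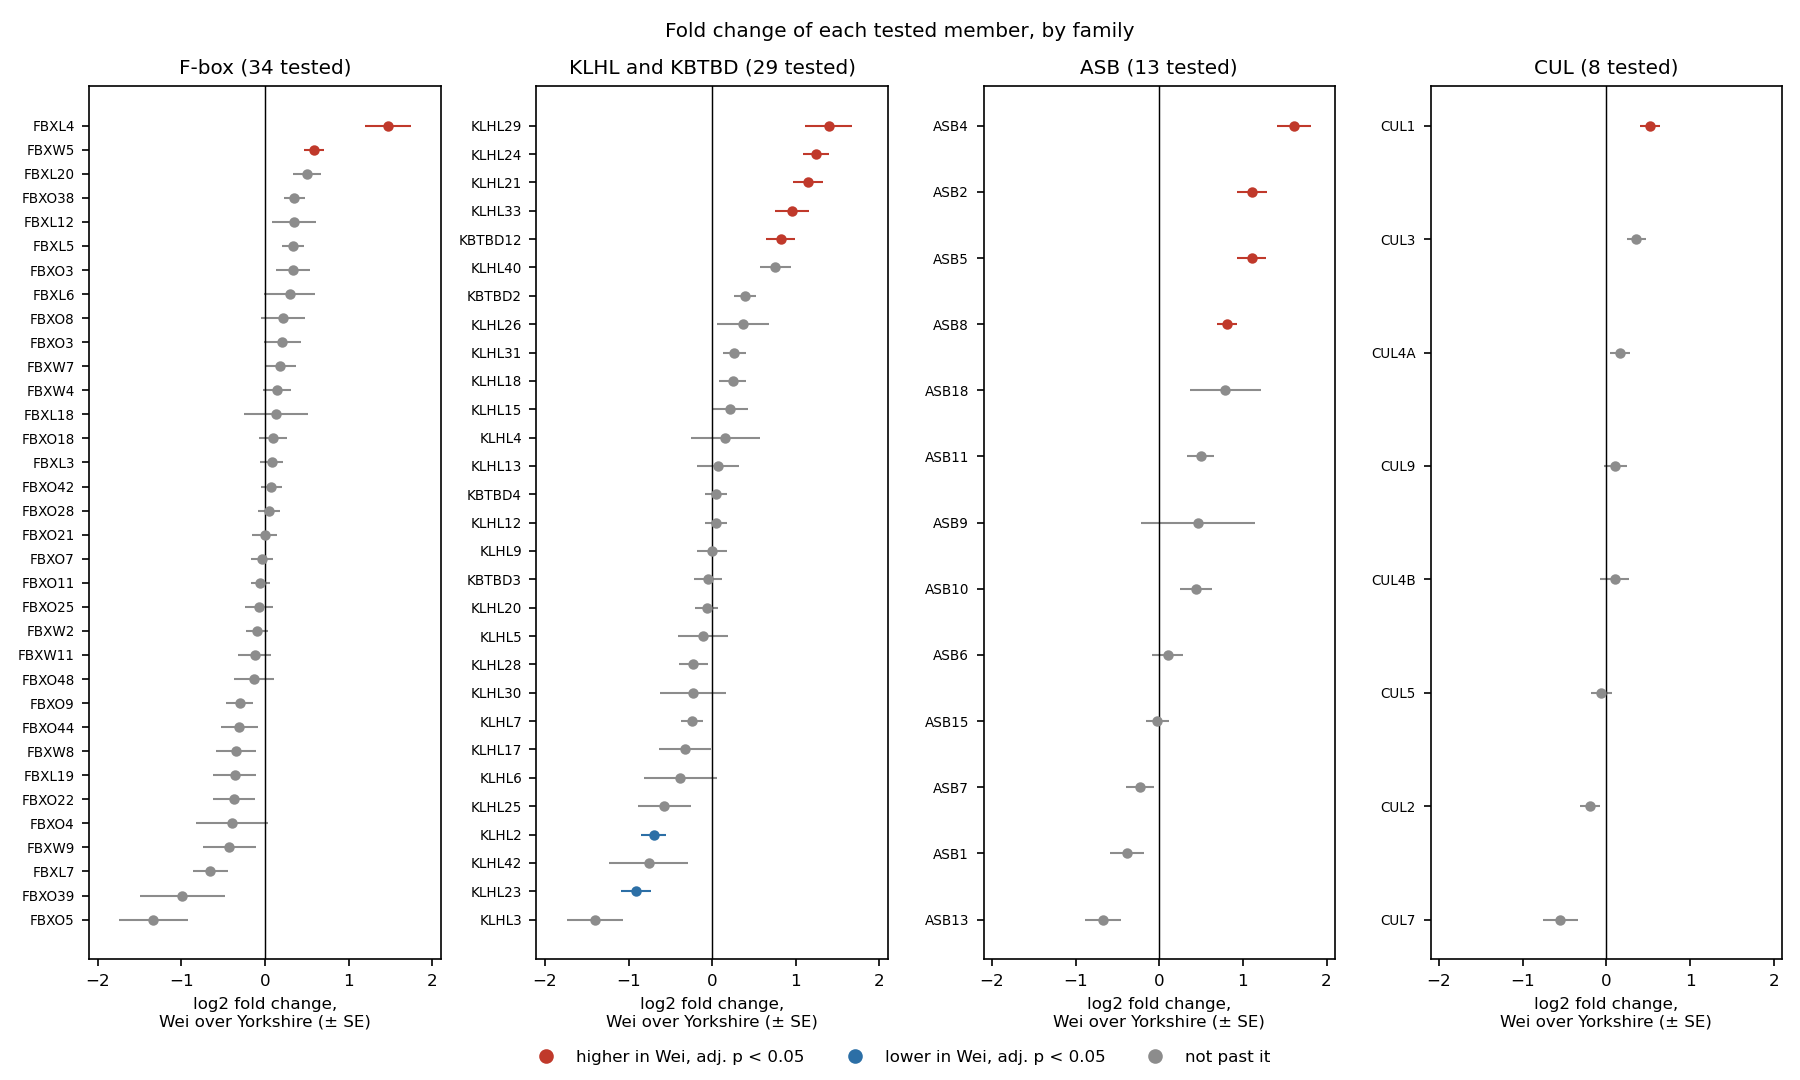
Log2 fold change of Wei over Yorkshire with its SE (x axis) for each of the 84 tested members, 1 panel per family, ordered by fold change, with colours for genes past an adjusted p of 0.05 in either direction. Genes past the threshold number 2 of 34 among F-box genes, 7 of 29 among KLHL and KBTBD genes, 4 of 13 among ASB genes and 1 of 8 among cullins, and genes that miss it spread to both sides of 0.

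F-box proteins bind SKP1 and CUL1 through the F-box and their targets through leucine-rich repeats (FBXL), WD40 repeats (FBXW) or other domains (FBXO). Of the 34 tested, 2 rose in Wei and none fell, with a median log2 fold change of 0.019. In edgeR's test 7 had an unadjusted p under 0.05, 2 of them negative, and DESeq2 and limma voom likewise called 2 higher and 0 lower. None of the 18 tested FBXO genes was called, with 2 at an unadjusted p under 0.05.

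FBXL4, a mitochondrial F-box protein that restrains mitophagy and whose human mutations deplete mitochondrial DNA, stood at 53.5, 90.4 and 95.4 CPM in Wei and 35.1, 32.0 and 19.3 CPM in Yorkshire (chromosome 1, 74422359 to 74484868). Its lowest Wei library was above its highest Yorkshire library, and its log2 fold change of 1.47 ± 0.28 was the second largest among members (edgeR adjusted p = 0.0301). It passed without Wei replicate 1 (0.0261) and without Yorkshire replicate 1 (0.0487), and missed without Wei replicates 2 (0.0617) and 3 (0.0798) and Yorkshire replicates 2 (0.102) and 3 (0.0699). FBXW5 stood at 33.2, 31.5 and 34.4 CPM in Wei and 23.2, 21.8 and 20.99 CPM in Yorkshire (chromosome 1, 313760868 to 313763290). Both groups were tight and apart, with a log2 fold change of 0.59 ± 0.12 (edgeR adjusted p = 0.0356), but the adjusted p was 0.0591 to 0.122 in the 6 fits without a library, and it missed without TMM scaling.

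By mean FPKM over the 6 libraries FBXO11 and FBXO9 were the most abundant F-box members, and their groups overlapped. FBXO31, which is named only by its gene ID and is not a member, was above both at 47.9 FPKM. In Wei alone FBXL4 was first among the F-box members, at 29.3 FPKM, with FBXO11 at 23.9, FBXW5 at 21.4 and FBXO9 at 20.2 FPKM. FBXO11, which targets BCL6 in human B cells, stood at 84.5, 86.5 and 91.0 CPM in Wei and 84.2, 99.3 and 88.8 CPM in Yorkshire. FBXO9 had a log2 fold change of -0.30 ± 0.16 and FBXW4 one of 0.14 ± 0.16, with overlapping groups in both. FBXL7 (-0.65 ± 0.20) and FBXO5 (-1.34 ± 0.42) had the smallest p of the F-box genes not called, with edgeR adjusted p of 0.103 and 0.0996. FBXO5, also called EMI1, blocks the anaphase-promoting complex in the cell cycle, and was scarce, at 0.391 to 0.651 CPM in Wei and 0.782 to 1.68 CPM in Yorkshire. FBXO39 was also scarce, with a log2 fold change of -0.99 ± 0.50 and overlapping groups. The 2 rows of FBXO3 had log2 fold changes of 0.33 ± 0.20 and 0.20 ± 0.22, and their reads may have been split between them.

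In all, 31% of the tested members had an unadjusted p under 0.05 in edgeR's test, beside 23.3% of all tested genes. Beyond the 14 calls, 12 members had an unadjusted p under 0.05 without passing, 7 higher and 5 lower in Wei. Values of the 3 Wei and 3 Yorkshire libraries did not overlap for 20 members with Wei above and 11 with Wei below, or 23.8% and 13.1% of those tested. Over all tested genes these shares were 14.3% and 15.3%, or 29.6% in either direction, beside 36.9% of the members. The median SE of a member's log2 fold change was 0.18, and SEs ran from 0.11 for CUL3 to 0.68 for ASB9.

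The 13 members below the filter were FBXL16, FBXO2, FBXO15, FBXO16, FBXO17, FBXO24, FBXO36, FBXO41, FBXO43, KBTBD11, KLHL1, KLHL14 and KLHL35. FBXO16, FBXO36, FBXO41 and KLHL1 had 0 counts in every library, which allows up to 3 counts in each, or 0.147 to 0.195 CPM in Wei and 0.109 to 0.166 CPM in Yorkshire. FBXO17 had the most, 52 counts in all, with 1, 6 and 6 in Wei and 22, 7 and 10 in Yorkshire. These limits cover counting error only.

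Genes that run cullin-RING ligases in general were also read. Of all tested genes 5.08% were called, and 23.3% had an unadjusted p under 0.05 in edgeR's test. At that share, 0 calls in lists as short as the next ones do not set them apart from other genes. Of 9 core subunits listed 5 had a row, and 0 of these 5 passed edgeR's test, with 1 at an unadjusted p under 0.05, and DESeq2 called 1 and limma voom 0. The elongin genes listed as TCEB1 and TCEB2 had log2 fold changes of -0.17 ± 0.15 and 0.046 ± 0.131, and the RING gene RNF7 one of -0.079 ± 0.174. DDB1, the core gene at an unadjusted p under 0.05, had one of 0.43 ± 0.13 (edgeR adjusted p = 0.0897). Each Wei library lay above all Yorkshire libraries for DDB1. Of the COP9 signalosome and CAND genes, which remove NEDD8 and exchange adaptors, 0 of 10 passed edgeR's test, with 2 at an unadjusted p under 0.05, and DESeq2 called 1 and limma voom 0. COPS4, COPS5 and COPS8 had log2 fold changes of 0.22 ± 0.15, -0.14 ± 0.13 and 0.32 ± 0.18. CAND2 had one of 0.55 ± 0.15 and COPS7A one of 0.32 ± 0.13, with edgeR adjusted p of 0.0727 and 0.175. In both, the Wei libraries lay above all Yorkshire libraries. In COPS2 they lay below (log2 fold change -0.24 ± 0.11, edgeR adjusted p = 0.247).

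Of the 11 neddylation genes 1 rose and 1 fell, with a list median of 0.11. The share called was 18.2%, beside 5.08% of all tested genes. An unadjusted p under 0.05 in edgeR's test was found for 45.5%, beside 23.3% of all. The groups did not overlap for 63.6%, beside 29.6% of all. DCUN1D2, which helps attach NEDD8 to cullins, stood at 35.3, 39.7 and 38.5 CPM in Wei and 24.3, 24.9 and 26.5 CPM in Yorkshire. It had a log2 fold change of 0.58 ± 0.12 (edgeR adjusted p = 0.0359), and 0.0641 to 0.123 in the 6 fits without a library. Its relative DCUN1D4 stood at 7.99, 5.27 and 5.77 CPM in Wei and 14.5, 16.3 and 11.9 CPM in Yorkshire. The log2 fold change was -1.16 ± 0.21 (edgeR adjusted p = 0.0256), and the call was lost without Wei replicates 2 (0.0565) and 3 (0.0736) and Yorkshire replicates 1 (0.0579) and 2 (0.102). These 2 relatives thus differed in direction. UBA3, a subunit of the NEDD8-activating enzyme, was nearest to the threshold among those not called, at 44.2, 40.3 and 42.2 CPM in Wei and 59.5, 60.8 and 54.6 CPM in Yorkshire, without overlap (log2 fold change -0.47 ± 0.12; edgeR adjusted p = 0.0566). NEDD8 itself had a log2 fold change of -0.050 ± 0.176. ARIH2, which works with CUL5, had a log2 fold change of 0.52 ± 0.15 and DCUN1D1 one of 0.45 ± 0.13, with edgeR adjusted p of 0.0887 and 0.0863.

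Of 39 tested rows of adaptors outside the naming rule, 2 of them for DCAF6, 2 rose and 1 fell, with a median of 0.14. The share called, 7.69%, was near the 5.08% of all tested genes, and 20.5% had an unadjusted p under 0.05 beside 23.3% of all. The CUL2 adaptor ZYG11B had a log2 fold change of 0.87 ± 0.14, at 296 ± 36.9 CPM in Wei and 161 ± 9.92 CPM in Yorkshire (SD, n = 3 each; edgeR adjusted p = 0.0182). The CUL4 adaptor DCAF8 had one of 0.72 ± 0.12, at 355 ± 28.3 CPM in Wei and 215 ± 7.44 CPM in Yorkshire (edgeR adjusted p = 0.022). The CUL3 adaptor RHOBTB2 had one of -0.89 ± 0.17, at 13.7 ± 1.97 CPM in Wei and 25.4 ± 3.33 CPM in Yorkshire (edgeR adjusted p = 0.0291). By mean FPKM over the 6 libraries DCAF6 and FEM1A led the list and were not called, with log2 fold changes of 0.43 ± 0.13 (the more abundant of 2 DCAF6 rows) and 0.28 ± 0.14. In Wei alone DCAF8, at 157 FPKM, was above FEM1A, at 145 FPKM. ZYG11B lost the call without Yorkshire replicates 1 (0.0525) and 2 (0.0851). DCAF8 lost it without Wei replicate 3 (0.0531) and Yorkshire replicates 1 (0.0532), 2 (0.101) and 3 (0.0747). RHOBTB2 lost it without Wei replicates 2 (0.0636) and 3 (0.0736) and Yorkshire replicates 2 (0.105) and 3 (0.0867).

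Among 16 rows of genes known as partners or targets of adaptors in muscle and other tissues, 1 rose and none fell. Their median was 0.11. NEB had 2 of these rows, and FLNA, also listed, had no row. The share called, 6.25%, was near the 5.08% of all tested genes. The called gene was NFE2L2, which encodes the oxidative stress factor NRF2, a protein that KEAP1 and CUL3 keep low. Only RNA was measured here, so protein levels of targets were not tested. NFE2L2 stood at 161, 137 and 139 CPM in Wei and 78.9, 72.4 and 77.9 CPM in Yorkshire, with a log2 fold change of 0.93 ± 0.12 (edgeR adjusted p = 0.0108), and missed only without Yorkshire replicate 2 (0.059). The sarcomere and filamin genes of the list were not called. The 2 NEB rows had log2 fold changes of 0.060 ± 0.180 and -0.14 ± 0.25, DES one of 0.11 ± 0.22, TCAP one of 0.21 ± 0.25 and ACTN2 one of 0.28 ± 0.18. FLNC, the filamin C that KLHL31 targets, had one of 0.78 ± 0.28 (edgeR adjusted p = 0.148; unadjusted p = 0.024), and its groups overlapped. In this list edgeR's test gave 5 genes at an unadjusted p under 0.05, 1 of them negative, or 31.2% beside 23.3% of all tested genes. DESeq2 called 3 higher and 0 lower, and limma voom 1 higher and 0 lower.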

How the data were processed

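The authors deposited, per the file headers, a table of pig genes that holds for each library a raw count and an FPKM value for every gene; coordinates come from it. Tools in the submitters' processing notes are TopHat2 2.0.9, CASAVA 1.7 and edgeR, on Sscrofa10.2; their roles, the counter, the annotation and strand use were not given. The label for breed set the groups. After filterByExpr (minimum count 10) and TMM scaling, edgeR 4.0.16 under R 4.3.3 fitted breed as the only term by quasi-likelihood, and p-values were adjusted over all tested genes by the Benjamini-Hochberg method at 0.05. The SE was taken as the unshrunken fold change divided by the root of its F statistic. FPKM served for levels and their sums, as deposited and without the TMM scaling, and entered no test. The procedure was tested on simulated counts. Each pair of libraries of a breed differed by more than sampling noise (lowest chi-square per degree of freedom 26.7). Members, lists and tests were chosen with earlier results of these data known. The genes named are all called members, all cullins, the 3 most abundant and the 2 uncalled of smallest p in each family. Also named are the 5 largest changes each way, and called and abundant list genes. A few others were chosen after their values were seen (FBXW4, ASB9, FBXO3, UBA3, DDB1, CAND2, COPS7A, COPS2, ACTN2, FLNC and the members below the filter). Alternatives were DESeq2 1.42.0, limma 3.58.1 (voom), other scalings and filters, a replicate block and each library left out. Figures were drawn with matplotlib 3.10.9.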

Additional observations from a re-analysis of the deposited data

Results flagged for a closer look

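Genes of the Y chromosome, which enter no comparison here, had 6901 counts in Wei replicate 2, against at most 14 in each other library. Without Wei replicate 2, 7 of 84 tested members were higher in Wei and 0 lower. Of all genes tested in that fit, 1.89% were higher and 0.985% lower. The fits without Wei replicate 3 or without Yorkshire replicate 1 also gave 7 members higher and 0 lower.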

How the results depend on the processing

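No called member changed direction under any alternative. The breeds' libraries do not overlap for any of them, so a fit with 1 library fewer has little room to reverse one. Members higher numbered 9 to 13 under other scalings, filters, DESeq2 and limma voom. Of the 14 calls, 10 held in each of these 6 fits. An adjusted p under 0.01 left 2 members higher and 0 lower (1 ASB, 1 KLHL or KBTBD, 0 F-box, 0 CUL), and 52 of all genes. Library size alone gave 1 lower, 1 F-box and 0 CUL. Fewer calls follow from the stricter threshold; for library size alone the cause was not tested. No count filter and the 1 CPM filter gave 3 lower, as did DESeq2, which called 1291 genes in all; the cause was not tested. The replicate block gave 8 higher and 0 lower, with 4 KLHL or KBTBD, 4 ASB, 0 F-box and 0 CUL; 7 of the 14 calls passed under it, and KLHL40 was added. The labels do not say what the replicate numbers mark. Same-numbered deviations correlated at 0.17, -0.030 and 0.019 across genes for replicates 1 to 3. Differently numbered libraries were not correlated for comparison, so whether the numbers pair the libraries was not tested. With fewer samples, leaving out a library gave 1 to 8 members higher, 0 to 1 lower, 0 to 1 F-box, 1 to 4 KLHL or KBTBD, 0 to 4 ASB and 0 CUL, and 60 to 394 genes. The median log2 fold change of tested members was 0.010 to 0.079 in these fits and 0.048 to 0.083 under the other alternatives.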

Other observations

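No symbol is given for 9160 deposited genes, and 12 of them are named by gene ID as members of these families. Of these, 11 were tested, and KBTBD8 was higher in Wei, with a log2 fold change of 0.67 ± 0.14 (edgeR quasi-likelihood adjusted p = 0.0361), at 18.9 FPKM in Wei and 11.98 FPKM in Yorkshire. That call was not recomputed with libraries left out. With these genes, chosen after the data were seen, 13 members were higher and 2 lower. FBXO31 was the most abundant of them, at 55.1 FPKM in Wei and 40.8 FPKM in Yorkshire, and did not pass (0.43 ± 0.18; adjusted p = 0.193). The gene listed as KLHL12 has an ID that the table of gene names gives to another gene, so its values are uncertain. It is not discussed further, but it is counted among the 29 tested KLHL and KBTBD genes. The median log2 fold change of that family, 0.046, is the value of this row. CISH, a SOCS-box gene induced by growth hormone and cytokines, was not called but stood at 3.19, 4.23 and 46.5 CPM in Wei and 0.391, 2.38 and 1.60 CPM in Yorkshire, with Wei replicate 3 far above the rest; it was named after its values were seen.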
